A study of Mus musculus with 4 samples.

Results

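The Fc receptor genes analysed here are Fcgr1, Fcgr2b, Fcgr3, Fcgr4, Fcer1g and Fcgrt, which encode the activating and inhibitory receptors for the Fc part of IgG, their common signalling chain and the neonatal Fc receptor. They were chosen by symbol, and each of the 6 was found once among 28585 genes. Their RNA levels were measured in PMN-MDSCs (polymorphonuclear myeloid-derived suppressor cells, cells of the neutrophil lineage that restrain T cell responses) sorted from pup spleens at postnatal day 7. The study asked what loss of Dhps does to these cells, and the data are 4 bulk RNA sequencing libraries. In 2 libraries, called Dhps cko, both Dhps alleles were floxed and Cre was expressed from the Lysm (Lyz2) locus (Dhps fl/fl Lysm cre). In the other 2, called Dhps flox, the alleles were floxed and the Cre allele was not named (Dhps fl/fl). Dhps encodes deoxyhypusine synthase, which makes the hypusine residue of the translation factor eIF5A.

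Both groups carried the floxed alleles on a C57BL/6J background, and the labels name no treatment. Lysm drives Cre in granulocytes, monocytes and macrophages alike, so the deletion is not particular to PMN-MDSCs, and the Cre allele itself differed between the groups. The cells were sorted as CD11b+ Ly6G+ with low or no Ly6C. The labels do not say whether the 2 libraries of a group came from separate pups or from pooled pups, so p-values measure the spread between these libraries, which may be technical. In a bulk library, fewer cells of a type and less RNA per cell cannot be told apart.

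Fc gamma receptors bind antibody-coated targets and link antibodies to phagocytosis, killing and cytokine release by myeloid cells. The activating receptors of the mouse, encoded by Fcgr1, Fcgr3 and Fcgr4, signal through the gamma chain encoded by Fcer1g, whose ITAM (a motif with a pair of tyrosines) recruits the kinase Syk once Src family kinases have phosphorylated it. The receptor encoded by Fcgr2b carries an ITIM, a motif with a single tyrosine that recruits phosphatases and opposes that signal. The neonatal Fc receptor, encoded by Fcgrt, pairs with beta-2 microglobulin and protects IgG from degradation inside cells.

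The coding stretches that separate the activating from the inhibitory genes are shown first. They come from the GENCODE M21 transcripts (GRCm38, the assembly also called mm10), run 5′ to 3′ along the coding strand, and carry the codons of the motif tyrosines in capitals. The Fcgr2b ITIM lies in exon 8 of 8 on the minus strand at chr1:170961071-170961088. The Fcer1g ITAM spans exons 4 and 5 of 5 on the minus strand at chr1:171229889-171230072. The ITIM pattern alone is short, and it also matched elsewhere in the coding sequences of Fcgr1, Fcgr4, Fcer1g and Fcgrt, so a match is a description and not a site.
Fcgr2b ITIM: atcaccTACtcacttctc
Fcer1g ITAM: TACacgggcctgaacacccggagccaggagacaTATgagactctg

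The next stretches show how far the receptor genes can be told apart by sequence, which decides how well reads can be assigned to each of them. The longest run common to the coding sequences of Fcgr2b and Fcgr3 was 129 bases. It crosses exons 3 and 4 in both, at chr1:170966674-170968081 in Fcgr2b and chr1:171054167-171057792 in Fcgr3, both on the minus strand. The aligned stretches of Fcgr4 (plus strand, chr1:171020046-171025570) and Fcgr1 (minus strand, chr3:96287206-96292358) also cross exons 3 and 4, and capitals mark the bases that differ from the shared run or have no partner in it. Such bases made up 53 of 132 in Fcgr4 and 56 of 133 in Fcgr1.
Fcgr2b and Fcgr3: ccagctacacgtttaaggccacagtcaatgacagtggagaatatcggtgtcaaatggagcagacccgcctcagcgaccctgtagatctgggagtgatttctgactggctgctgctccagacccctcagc
Fcgr4: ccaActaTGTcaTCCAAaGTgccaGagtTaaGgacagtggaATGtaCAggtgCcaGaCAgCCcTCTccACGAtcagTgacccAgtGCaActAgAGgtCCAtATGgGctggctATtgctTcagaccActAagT
Fcgr1: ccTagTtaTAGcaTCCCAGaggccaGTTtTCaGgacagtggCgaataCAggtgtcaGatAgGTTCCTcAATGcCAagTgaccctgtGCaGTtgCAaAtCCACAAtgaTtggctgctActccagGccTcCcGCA

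Over their whole coding sequences, Fcgr2b and Fcgr3 were identical at 85.9% of 781 aligned bases, whereas the other pairs of receptor genes were identical at 60.5% to 66.2%. Of the 75-base words in the transcripts of Fcgr3, 5.42% (94 of 1733) also occurred in Fcgr2b, and the count shared with any gene was the same. Fcgr2b shared 1.63% of its words with Fcgr3 and 5.43% with any gene, while Fcgr1, Fcgr4, Fcer1g and Fcgrt shared 0%. Reads of that length from those words could have been counted for either gene, so the values of both are uncertain. The 75 bases are a setting and not a stated read length, and longer reads would be shared less often. Because Fcgr3 was the more abundant, the uncertainty weighs more on Fcgr2b. With even coverage, the shared words would hold approximately 339 to 402 fragments of Fcgr3 in a library, which equals 21.3% to 25.2% of the fragments counted for Fcgr2b. Exons of Fcgr2b also overlapped Gm38204 on the opposite strand over 155 bases, 2.7% of its exon length, and whether strand was used in counting is not given in the sources used here.

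Fcgr2b, Fcgr4, Fcgr3 and Fcer1g lie close together on chromosome 1, at chr1:170958617-170976547, chr1:171018920-171029761, chr1:171051174-171064935 and chr1:171229572-171234365. Fcgr4 is on the plus strand and the others on the minus strand. Fcgr1 is at chr3:96282909-96293969 and Fcgrt at chr7:45092990-45103851, both on the minus strand. The 6 genes therefore sit at 3 loci, 4 of them in the chromosome 1 cluster.

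The libraries were alike in size. FPKM (fragments scaled by transcript length and by sequencing depth, so levels are per length and can be compared between genes) summed to between 304281 and 319286. The steps between low values gave depths of about 29400000 to 32100000 fragments. Of the low values used, 40.4% to 44.8% lay within 0.15 of a whole number of fragments, beside 30% by chance. These depths, and the fragment numbers derived from them, are therefore rough. Dhps itself was at 2.38 and 2.59 FPKM in Dhps cko and 3.57 and 3.11 FPKM in Dhps flox, 74.4% of the flox mean, with a log2 fold change of -0.41 (SE 0.13) and an adjusted p of 0.629 by limma. Its direction fits the labels and its difference did not pass the threshold. The summed level of 4 Y-linked genes was 7.07 and 8.07 FPKM in Dhps cko and 17.64 and 15.62 FPKM in Dhps flox, so the sex of the pups and the genotype cannot be told apart.

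All 6 Fc receptor genes were detected in every library, and their levels spanned from 1.49 to 331.67 FPKM. In each of the 4 libraries the order was Fcer1g, Fcgr3, Fcgr4, Fcgr2b, Fcgrt and Fcgr1, and no neighbours in that order overlapped over the 4 libraries. The closest pair was Fcgr2b, between 14.22 and 15.22 FPKM, and Fcgrt, between 10.43 and 13.22 FPKM. By mean level over the 4 libraries, Fcer1g ranked 83 among the 28585 genes, Fcgr3 180, Fcgr4 626, Fcgr2b 2754, Fcgrt 3271 and Fcgr1 8579. RNA of the common chain and of Fcgr3 was thus among the more abundant of these cells, and that of the high-affinity receptor Fcgr1 was scarce.

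**Figure D1:**
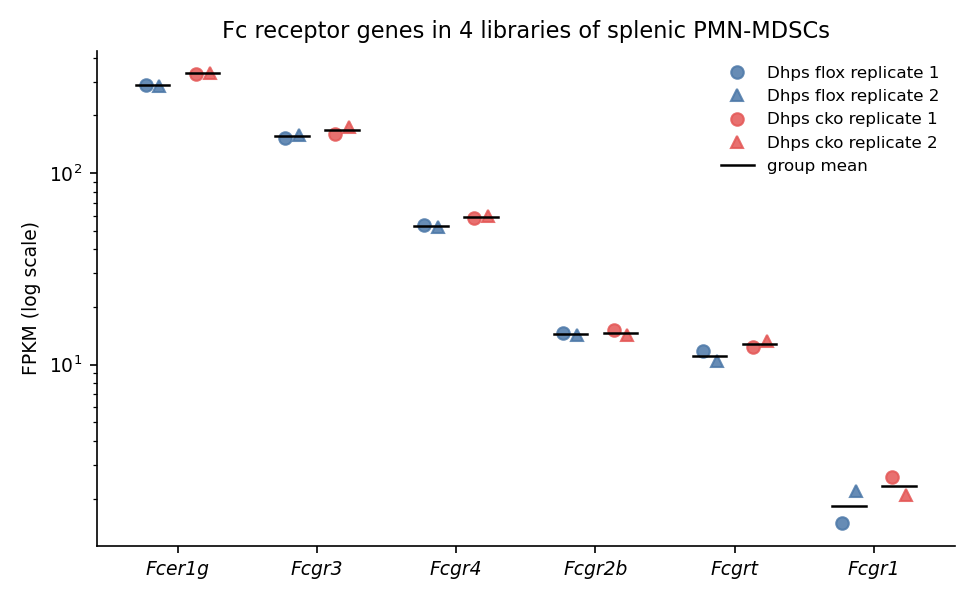
FPKM of each Fc receptor gene on a log axis in the 2 Dhps flox (blue) and 2 Dhps cko (red) libraries, with replicate 1 as circles, replicate 2 as triangles and group means as black lines. Fcer1g lies between 284.79 and 331.67 FPKM and Fcgr1 between 1.49 and 2.58 FPKM, and the genes keep the same order in every library.

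The common chain came first. Fcer1g (ENSMUSG00000058715) was at 330.21 and 331.67 FPKM in Dhps cko and at 288.65 and 284.79 FPKM in Dhps flox. The groups did not overlap, and the libraries of a genotype lay within a few FPKM of each other. The means were 331 ± 1.03 (SD, n = 2) and 287 ± 2.73 (SD, n = 2), a fold of 1.15 with a 95% interval of 1.05 to 1.26. The log2 fold change was 0.21 (SE 0.05), with an unadjusted p of 0.01 and an adjusted p of 0.539 by limma, so the difference did not pass the threshold of 0.05 over all genes tested. With quantile normalization the log2 fold change was 0.1306.

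Among the activating receptors, Fcgr3 (ENSMUSG00000059498), which encodes the low-affinity receptor CD16, was the most abundant. Its level was 159.49 and 174.08 FPKM in Dhps cko and 152.4 and 157.97 FPKM in Dhps flox. Both cko libraries were above both flox libraries, but the lowest cko and the highest flox value were close to each other and the cko libraries spread more widely. The log2 fold change was 0.10 (SE 0.07, 95% interval -0.07 to 0.27), with an adjusted p of 0.80 by limma. It was 0.0397 without Dhps cko replicate 2, 0.1659 without Dhps cko replicate 1 and 0.0172 with quantile normalization.

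Fcgr4 (ENSMUSG00000059089) encodes a further activating receptor, which binds mouse IgG2 subclasses and is known from neutrophils and monocytes. It was at 58.61 and 59.56 FPKM in Dhps cko and at 53.36 and 52.03 FPKM in Dhps flox. The groups did not overlap, and the gap between them was wider than the distance within either. The means were 59.1 ± 0.672 (SD, n = 2) and 52.7 ± 0.94 (SD, n = 2). The log2 fold change was 0.16 (SE 0.05, 95% interval 0.03 to 0.30), with an unadjusted p of 0.0254 and an adjusted p of 0.629 by limma.

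Fcgr1 (ENSMUSG00000015947) encodes the high-affinity receptor CD64, a marker of macrophages that interferon gamma induces. Its level was 2.58 and 2.09 FPKM in Dhps cko and 1.49 and 2.18 FPKM in Dhps flox. The groups overlapped, because the higher flox library lay above the lower cko library. Its log2 fold change was 0.35, with the widest interval of the 6 genes, -0.24 to 0.93, and an adjusted p of 0.807 by limma. Leaving out single libraries moved the log2 fold change between 0.0875 (without Dhps flox replicate 1) and 0.6076 (without Dhps flox replicate 2), and it was 0.2019 without Dhps cko replicate 1. It rested on approximately 119 to 214 fragments in a library, for which counting error alone is 6.84% to 9.17%.

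The inhibitory receptor was at nearly the same level in both genotypes. Fcgr2b (ENSMUSG00000026656) was at 15.22 and 14.22 FPKM in Dhps cko and at 14.72 and 14.22 FPKM in Dhps flox. The groups overlapped, and the lowest values of both were equal. The log2 fold change was 0.02 (SE 0.07, 95% interval -0.16 to 0.21), with an adjusted p of 0.968 by limma. From leaving out single libraries it ranged from -0.02 to 0.07 and was below 0 without Dhps cko replicate 1 and without Dhps flox replicate 2.

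The neonatal Fc receptor was at a level near that of the inhibitory receptor. Fcgrt (ENSMUSG00000003420) was at 12.31 and 13.22 FPKM in Dhps cko and at 11.84 and 10.43 FPKM in Dhps flox. Both cko libraries were above both flox libraries, with the flox libraries further apart from each other than the nearest cko library was from them. The log2 fold change was 0.20 (SE 0.09, 95% interval -0.04 to 0.44), with an adjusted p of 0.766 by limma. It was 0.1067 without Dhps flox replicate 2 and 0.288 without Dhps flox replicate 1, the latter with an unadjusted p of 0.0496 by limma.

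Across the family, the log2 fold change of FPKM + 0.1 was above 0 for 6 of 6 genes, although Fcgr2b was below 0 when FPKM were rescaled to TPM, beside 52.2% of the 17948 genes tested. The median of the 6 was 0.18 beside 0.01 over all genes tested. Both cko libraries were above both flox libraries for 4 genes, Fcer1g, Fcgr3, Fcgr4 and Fcgrt, a pattern that 20.0% of all genes tested showed, and 0 of the 6 had both cko libraries lower, beside 16.0%. No member had an adjusted p under 0.05 by limma, beside 0.00557% (1 gene) of all genes tested, and 2 of them, Fcer1g and Fcgr4, had an unadjusted p under 0.05 with a higher level in Dhps cko, beside 4.72%, and 0 with a lower level, beside 2.28%. Genes with an unadjusted p under 0.05 were higher in Dhps cko in 847 cases and lower in 410, and with TPM in 628 and 486. The 2 became 1 with TPM or quantile normalization. They became 0 in the fit without a mean-variance trend and in the fit with the replicate number as a block.

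**Figure D2:**
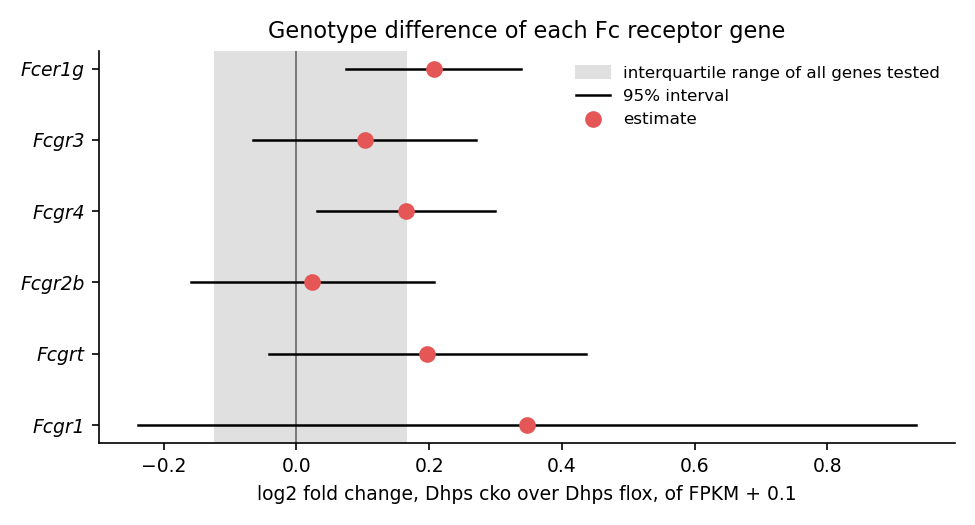
Log2 fold change (Dhps cko over Dhps flox, of FPKM + 0.1) of each Fc receptor gene with its 95% interval from limma, and in grey the interquartile range of all 17948 genes tested, from -0.12 to 0.17. All 6 estimates lie above 0 (Fcgr2b falls below 0 with TPM), the intervals of Fcer1g and Fcgr4 leave out 0, and Fcgr1 has the widest interval.

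The balance of activating and inhibitory receptors was compared by ratios within a library, which do not depend on the scaling between libraries. Of the summed FPKM of Fcgr1, Fcgr2b, Fcgr3 and Fcgr4, Fcgr3 made up 67.6% to 69.8% and Fcgr4 23.0% to 24.8%. Fcgr2b made up 5.69% to 6.63% and Fcgr1 0.671% to 1.09%. The ranges are over all 4 libraries, so the composition of the receptor RNA differed by only a few percentage points whatever the genotype.

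The ratio of Fcgr4 to Fcgr2b was 3.85 and 4.19 in Dhps cko and 3.63 and 3.66 in Dhps flox. The groups did not overlap, with a log2 difference of 0.14 beside a pooled SD of 0.06, and p = 0.33 in a two-sided exact permutation test, which is the smallest p that 2 against 2 libraries allow. Without Dhps cko replicate 2 the log2 difference was 0.0805. The ratio of Fcgr3 to Fcgr2b was 10.5 and 12.2 in Dhps cko and 10.4 and 11.1 in Dhps flox, which overlap (log2 difference 0.08, exact permutation p = 0.67). That difference was -0.0334 without Dhps cko replicate 2 and 0.1909 without Dhps cko replicate 1. The ratio of Fcgr1 to Fcgr2b also overlapped, at 0.170 and 0.147 against 0.101 and 0.153, with a log2 difference of 0.34. This difference was 0.0421 without Dhps flox replicate 1, 0.641 without Dhps flox replicate 2 and 0.2186 with a pseudocount of 1.

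The ratio of the common chain to the summed receptors that use it, Fcgr1, Fcgr3 and Fcgr4, was 1.50 and 1.41 in Dhps cko and 1.39 and 1.34 in Dhps flox. The groups did not overlap, but lay close together (log2 difference 0.09, pooled SD 0.05, exact permutation p = 0.33). The log2 difference was 0.0413 without Dhps cko replicate 1 and 0.1301 without Dhps cko replicate 2. The ratio of Fcgrt to B2m, its partner, was 0.0183 and 0.0190 in Dhps cko and 0.0184 and 0.0188 in Dhps flox, with a log2 difference of 0.00 (exact permutation p = 1.0), and between -0.0236 and 0.0301 when single libraries were left out. Adjusted over the 5 ratios, no p was below 0.83, and with 2 libraries a group none could pass 0.05.

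**Figure D3:**
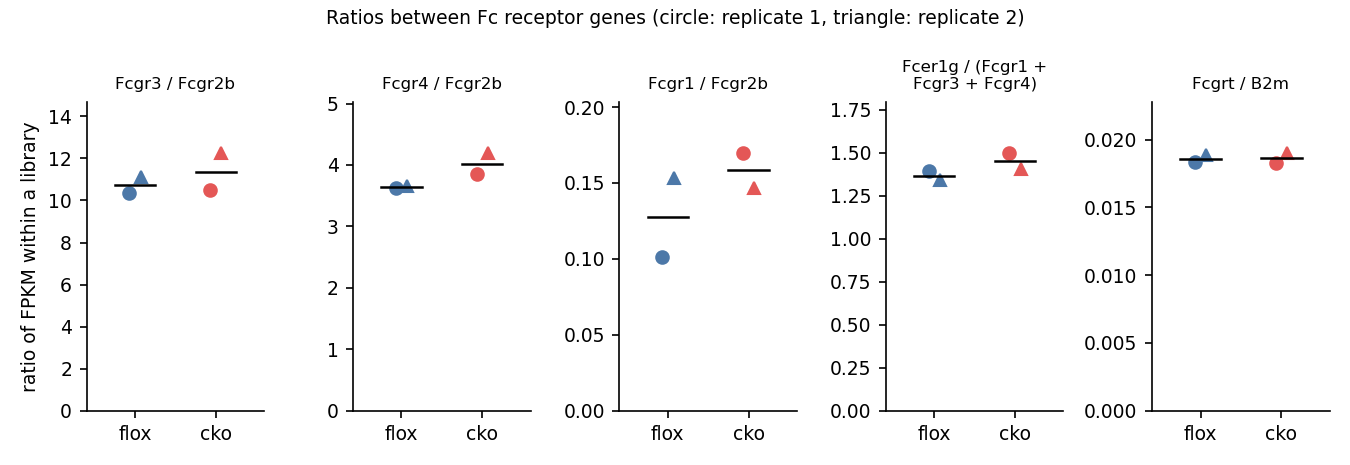
Ratios of FPKM within each library for 5 pairs, with axes from 0, Dhps flox in blue and Dhps cko in red, circles for replicate 1, triangles for replicate 2 and black lines for group means. The Fcgr4 to Fcgr2b ratio (3.63 to 4.19) and the Fcer1g ratio (1.34 to 1.50) do not overlap between genotypes, and the Fcgrt to B2m ratio is nearly level at 0.0183 to 0.0190.

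Of the 3 genes listed as partner chains, B2m and Tyrobp were at high levels. B2m, the light chain of the neonatal Fc receptor and of MHC class I, was at 673.07 and 696.4 FPKM in Dhps cko and 644.92 and 554.0 FPKM in Dhps flox (log2 fold change 0.20, adjusted p = 0.761 by limma). Tyrobp, an ITAM adaptor related to the common chain that serves other myeloid receptors and was the only partner chain with an unadjusted p under 0.05, was at 425.62 and 424.74 FPKM against 376.46 and 350.19 FPKM (log2 fold change 0.23, unadjusted p = 0.0141, adjusted p = 0.568 by limma). Both were above the flox libraries in both cko libraries, as Fcer1g was. Cd247, the remaining gene of this list, was at 0.27 FPKM or less in every library. The median log2 fold change of these 3 genes was 0.23, and 0.0862 without Dhps flox replicate 2. The count of 1 with an unadjusted p under 0.05 stands beside 4.72% of all genes tested, and it became 0 without either Dhps cko library, without a trend and with the replicate number as a block, and 2 without Dhps flox replicate 1.

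Of the 24 genes for kinases and adaptors downstream of Fc receptors, all were tested, 19 had a log2 fold change above 0, beside 52.2% of all genes tested, and 5 below, with a median of 0.06, and 0 had an adjusted p under 0.05. Without Dhps cko replicate 1 the median was 0.0314, without Dhps flox replicate 1 it was 0.0139, and without Dhps flox replicate 2 it was 0.1064, while TPM gave 0.0277 and quantile normalization 0.0283. The most abundant were Rac2, a GTPase of the phagocyte oxidase and cytoskeleton, at 637.48 and 590.52 FPKM in Dhps cko and 542.77 and 595.74 FPKM in Dhps flox, and the Src family kinase Fgr, at 127.33 and 126.71 against 114.3 and 120.42 FPKM. Syk, the kinase that docks on the ITAM, differed little, at 66.28 and 64.59 FPKM in Dhps cko and 61.02 and 64.76 FPKM in Dhps flox. Gab2, an adaptor that recruits PI3-kinase, was the only gene of this list with an unadjusted p under 0.05, and it was lower in Dhps cko, at 8.17 and 7.92 against 9.94 and 9.46 FPKM (log2 fold change -0.27, unadjusted p = 0.0173, adjusted p = 0.587 by limma), beside 2.28% of all genes tested that were lower at that p. The count of 1 became 0 without Dhps cko replicate 1, Dhps cko replicate 2 or Dhps flox replicate 1 and in the fit without a trend, and 3 without Dhps flox replicate 2.

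The 11 genes for phosphatases, adaptors, ubiquitin ligases and the kinase Csk that limit Fc receptor signals were all tested. Their log2 fold change was above 0 for 9, beside 52.2% of all genes tested, and below 0 for 2, the median was 0.10, and 0 had an adjusted p under 0.05. The median was 0.0037 without Dhps flox replicate 1, 0.0436 without Dhps cko replicate 2, 0.0668 without Dhps cko replicate 1, 0.0441 with quantile normalization and 0.0594 over genes averaging 1 FPKM or more. Inpp5d (SHIP-1), the phosphatase recruited by the Fcgr2b ITIM, was at 30.88 and 30.67 FPKM in Dhps cko and 29.76 and 31.28 FPKM in Dhps flox, which overlap. Ptpn6 (SHP-1) was at 218.81 and 210.94 against 192.12 and 206.53 FPKM, and the adaptor Dok3 at 168.32 and 156.04 against 137.69 and 163.74 FPKM. Cbl, a ubiquitin ligase that targets active receptor complexes, was lower in both cko libraries, at 63.17 and 57.93 against 68.55 and 69.64 FPKM (log2 fold change -0.19, unadjusted p = 0.0308, adjusted p = 0.652 by limma). It was the only gene of this list with an unadjusted p under 0.05, beside 2.28% of all genes tested that were lower at that p. The count became 0 without Dhps cko replicate 2, without Dhps flox replicate 1, without a trend and with the replicate number as a block.

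Other receptors that bind Fc parts of antibodies, and Fc receptor-like genes, were low in these cells. Of 13 such genes 11 were in the data and 7 passed the filter on low values, at 6.54 FPKM or less in every library. The most abundant, Trim21, a cytosolic antibody receptor, was at 5.15 and 5.26 FPKM in Dhps cko and 4.48 and 5.34 FPKM in Dhps flox. Pigr, the transporter of IgA and IgM across epithelia, varied widely between replicates, at 3.95 and 2.85 against 6.54 and 1.22 FPKM. Of the 7, 6 had a log2 fold change above 0, beside 52.2% of all genes tested, and 1 below. By limma, 0 had an adjusted p under 0.05 and 0 an unadjusted p under 0.05, the latter being 1 without a filter, without a trend and without Dhps cko replicate 1 or either Dhps flox library. Their median of 0.22 is the value of Pigr, whose mean FPKM was lower in Dhps cko (3.40 against 3.88). It was 0.0728 without Dhps cko replicate 2, 0.1194 without Dhps cko replicate 1, 0.1412 without Dhps flox replicate 1 and 0.0936 with a pseudocount of 1.

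Among transcripts of the antibodies themselves, those of IgM were the most abundant. Ighm was at 40.56 and 42.91 FPKM in Dhps cko and 27.03 and 31.99 FPKM in Dhps flox (log2 fold change 0.50, adjusted p = 0.488 by limma), and Ighd was at 2.74 and 3.04 against 1.85 and 1.75 FPKM (log2 fold change 0.65, adjusted p = 0.488 by limma). Igha varied widely between replicates, at 4.26 and 2.25 against 5.39 and 1.34 FPKM. The IgG heavy chain genes, whose products are the ligands of the Fcgr family, were at 0.91 FPKM or less in every library. Of 7 heavy chain constant genes in the data 4 were tested, but Ighg2c passed the filter on low values through Dhps cko replicate 1 alone, so no count or median of this list is given.

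**Figure D4:**
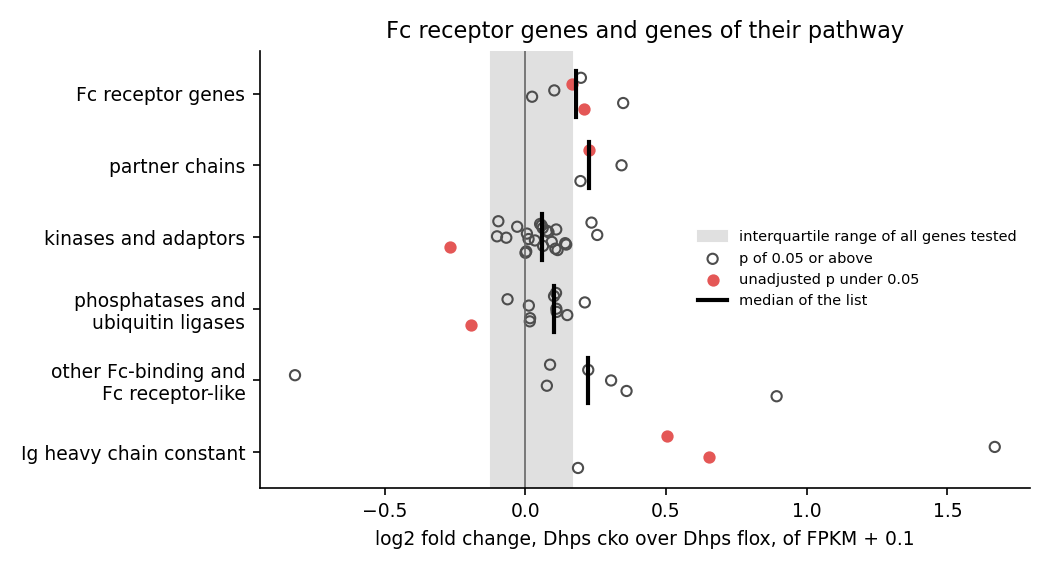
Log2 fold change (Dhps cko over Dhps flox, of FPKM + 0.1) of the Fc receptor genes and of the genes tested in 5 related lists, with filled points for an unadjusted p under 0.05, black lines for list medians (none for the heavy chain genes) and the interquartile range of all genes tested in grey. The medians are 0.18 for the Fc receptor genes (Fcgr2b turns negative with TPM), 0.23 for partner chains, 0.06 for kinases and adaptors and 0.10 for phosphatases and ubiquitin ligases.

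Fc receptors are carried by several cell types, so marker lists of those types are given beside the members. The neutrophil markers were at summed levels between 73002 and 79945 FPKM, led by Ngp and S100a9, and Ly6g, the marker of the sort, was at 222.16 and 241.58 FPKM in Dhps cko and 194.95 and 184.8 FPKM in Dhps flox (log2 fold change 0.29, adjusted p = 0.529 by limma). Of these 12 markers 10 were above 0 on the log2 scale, beside 52.2% of all genes tested, with a median of 0.08. The neutrophil lineage of the label had its defining markers in every library, at levels far above those of any other list.

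Monocyte and macrophage markers had a larger summed level in the Dhps cko libraries, although 0 of 14 had an adjusted p under 0.05 by limma. All 14 were present and 13 had a log2 fold change above 0, beside 52.2% of all genes tested. Both cko libraries were above both flox libraries for 9 of them, beside 20.0% of all genes tested, and 5 had an unadjusted p under 0.05 with a higher level in Dhps cko (C1qa, C1qb, C1qc, Marco and Ccr2), beside 4.72%. Vcam1, Cd5l, Cx3cr1, Mrc1 and Spic overlapped between the genotypes. Their summed level was 203.3 and 210 FPKM in Dhps cko and 167 and 160 FPKM in Dhps flox, and their median log2 fold change was 0.26. None was at 0 in all libraries. Their part in the levels of the Fc receptor genes, Fcgr1 in particular, was not tested.

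The B cell markers are given because Fcgr2b is the Fc gamma receptor of B cells. All 8 were above 0 on the log2 scale, beside 52.2% of all genes tested, 4 had an unadjusted p under 0.05 with a higher level in Dhps cko, beside 4.72%, and 0 had an adjusted p under 0.05 by limma. Pax5 and Ebf1 overlapped between the genotypes. The summed level was 25.7 and 25.8 FPKM in Dhps cko and 15.0 and 19.7 FPKM in Dhps flox. Fcgr2b itself had a log2 fold change of 0.02, and the part of B cells in it was not tested. Mast cells and basophils use the common chain in the IgE receptor. Their markers summed to 51.9 and 57.6 FPKM in Dhps cko and 37.9 and 50.6 FPKM in Dhps flox, most of it from Hdc. Of the 6 tested, 5 were above 0 on the log2 scale, beside 52.2% of all genes tested. Ms4a2, the beta chain of the IgE receptor, was at 1.02 and 0.32 FPKM in Dhps cko and 1.14 and 1.08 FPKM in Dhps flox.

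The remaining marker lists were low, and no marker of any list had an adjusted p under 0.05 by limma. T cell markers summed to 15.0 to 18.5 FPKM in Dhps cko and 8.01 to 11.9 FPKM in Dhps flox, with 8 of 8 above 0 on the log2 scale, beside 52.2% of all genes tested. Both cko libraries were above both flox libraries for 5 of the 8, beside 20.0%, and 3 (Trac, Trbc2 and Lck) had an unadjusted p under 0.05 with a higher level in Dhps cko, beside 4.72%. Eosinophil markers summed to 12.4 to 14.0 against 9.06 to 9.32 FPKM, with no count given because Epx passed the filter through the Dhps cko libraries alone, and endothelial markers, of a cell type rich in Fcgrt, to 4.62 to 4.91 against 4.53 to 4.61 FPKM. NK cell markers summed to 0.79 to 1.36 against 0.96 to 1.11 FPKM and dendritic cell markers to 1.64 to 1.89 against 1.35 to 1.39 FPKM. The part of these cells in the values of the Fc receptor genes was not tested.

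**Figure D5:**
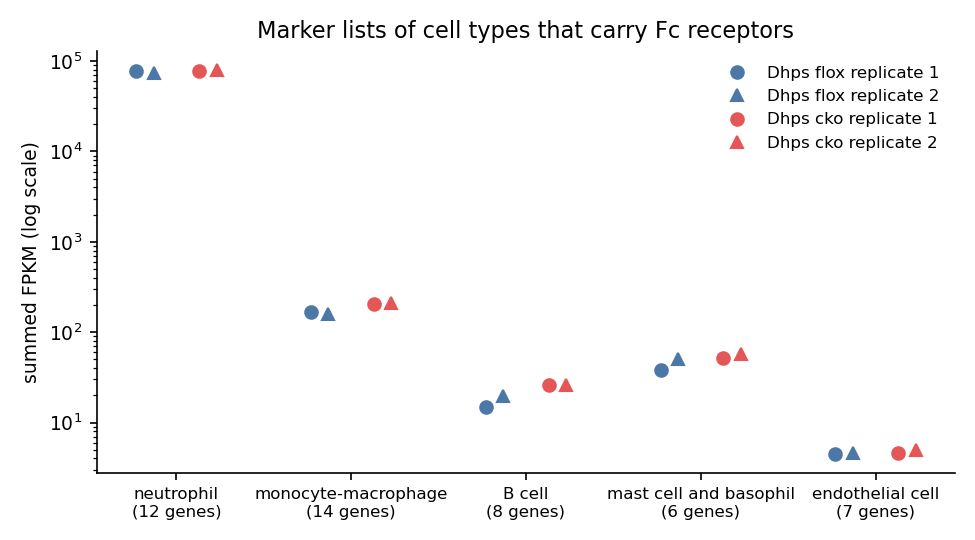
Summed FPKM on a log axis of 5 marker lists in the 2 Dhps flox (blue) and 2 Dhps cko (red) libraries, with replicate 1 as circles and replicate 2 as triangles. Neutrophil markers (73002 to 79945 FPKM) lie far above the rest. All 5 sums are higher in both Dhps cko libraries than in either Dhps flox library. The nearest libraries of the groups are close together for the neutrophil, the mast cell and basophil, and the endothelial lists.

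Fcgr1 and Fcgr4 are known to respond to interferons, and a list of interferon response genes, written with earlier results of these data known, was set beside them. Of 23 genes 22 were tested, and all 22 were higher in both cko libraries, beside 20.0% of all genes tested. Their median on the log2 scale was 0.45, and 0.2966 with a pseudocount of 1. Irf1, a transcription factor of the interferon response, was at 18.59 and 21.1 FPKM in Dhps cko and 17.73 and 17.77 FPKM in Dhps flox. An unadjusted p under 0.05 was found for 13 of them, among them Irf7, Irf9, Isg15 and Oas1a, beside 4.72% of all genes tested that were higher in Dhps cko at that p, and an adjusted p under 0.05 for 0. The 13 became 8 without Dhps cko replicate 2. The log2 fold changes of Fcgr4 and Fcgr1 were 0.16 and 0.35, the latter with overlapping groups. Whether these relate to the list was not tested, and the counts of a list so chosen are a description only.

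For each Fc receptor gene, the genes with the most similar levels over the 4 libraries were found among the 10629 genes averaging 1 FPKM or more, by the root mean square difference on the log2 scale. Fcer1g was nearest to Pglyrp1, a granule protein that binds bacterial peptidoglycan (0.06), and Ncf4, a subunit of the phagocyte oxidase (0.08). Fcgr3 was nearest to Vim (0.04) and Eno1 (0.05), and Fcgr4 to Samhd1, a dNTPase (0.02), and Rps23 (0.04). Fcgr2b was nearest to Klf7 and Dnajb6 (0.02 each), Fcgrt to Cytip (0.04) and Esd (0.05), and Fcgr1 to Apbb3 (0.07) and Tmem140 (0.10). With 4 libraries this likeness is mostly one of level.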

How the data were processed

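Splenic PMN-MDSCs of 2 Dhps cko and 2 Dhps flox samples (postnatal day 7) were profiled by bulk RNA sequencing. The deposited values are FPKM per gene, rounded to 2 decimals, which the authors calculated with StringTie and ballgown from reads filtered with Cutadapt and aligned with HISAT2 (mm10, per the labels). The annotation, the strand setting and any scaling between libraries are not given in the sources used here. Because FPKM are scaled to mapped fragments, a library with more fragments in a few genes has lower values elsewhere, and the 10 most abundant genes held 30.0% to 31.4% of the FPKM sum. Whole reads could not be recovered, so depth is approximate and no count test was run.

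Groups were taken from the genotype labels. From the deposited FPKM, log2(FPKM + 0.1) was compared for the 17948 genes averaging 0.1 FPKM or more by limma 3.58.1 in R 4.3.3 (mean-variance trend, no replicate block), with Benjamini-Hochberg adjustment over all of them and a threshold of 0.05. Such fold changes understate those of low genes. Ratios were compared by two-sided exact permutation tests in Python 3.11.15 with scipy 1.17.1. Coordinates and sequences came from GENCODE M21 (GRCm38), which held 28511 of the gene identifiers. Coding sequences were aligned with biopython 1.88, and 75-base words were compared over all transcripts. The limma fit was tested on simulated data whose fold changes were larger than those of the members. That test does not show how often differences as small as theirs would be found.

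The 6 genes, the related lists and the marker lists were chosen with earlier results of these data known. All 6 members were named. Of the related lists, genes with an unadjusted p under 0.05 and the 2 with the highest mean were named, with a few added after their values were seen (Syk, Inpp5d, Ms4a2, Cd247). Of the marker lists and the interferon response list only examples were named, and some items are not reported here. The alternatives were other pseudocounts, filters, scalings (TPM, size factors, quantile normalization) and variance models, a replicate block, and leaving out each library.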

Additional observations from a re-analysis of the deposited data

How the results depend on the processing

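Over the 14 fits, the log2 fold change ranged from 0.13 to 0.22 for Fcer1g (unadjusted p under 0.05 in 10 fits), 0.13 to 0.18 for Fcgr4 (7 fits), 0.11 to 0.29 for Fcgrt (1 fit), 0.02 to 0.17 for Fcgr3 (0 fits) and 0.09 to 0.61 for Fcgr1 (0 fits). No member had an adjusted p under 0.05 in any of them, the lowest being 0.433 for Fcer1g. For Fcgr2b the value was -0.008 with TPM and between -0.0248 and 0.0726 when single libraries were left out. The number of genes with an adjusted p under 0.05, 1 as reported, was 0 with a pseudocount of 0.01, 0 without a filter, 4 for genes averaging 1 FPKM or more, 2 with TPM, 2 with quantile normalization and between 0 and 0 when single libraries were left out. The log2 difference of the ratio of Fcgr3 to Fcgr2b was between -0.0334 and 0.1909 when single libraries were left out. That of Fcgrt to B2m was -0.012 with a pseudocount of 1 and between -0.0236 and 0.0301 when single libraries were left out. In the same way that of Fcgr4 to Fcgr2b was between 0.0805 and 0.2017, that of Fcer1g to its receptors between 0.0413 and 0.1301, and that of Fcgr1 to Fcgr2b between 0.0421 and 0.641. The causes were not tested.

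The labels do not say whether libraries with the same replicate number belong together, and the paper describes the animals as littermates. Deviations from the group mean of same-numbered libraries correlated at r = -0.06 over 10629 genes. A correlation over genes cannot decide whether the libraries were paired by litter or batch. With the replicate number as a block, 0 genes had an adjusted p under 0.05, 1082 genes instead of 1257 had an unadjusted p under 0.05, and 0 members did. Leaving out 1 library leaves a group with a single library, which is then assumed to vary like the other group. With 2 libraries a group, every comparison rests on the spread within pairs of libraries.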
